A study of Mus musculus with 30 samples.

Results

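The ventral prostate (VP) of mice fed lard (PF) for 32 weeks was compared with that of mice fed linseed oil (LO) for the same time, by RNA sequencing of 5 mice per diet. These 10 mice were all the LO and PF mice of the 32-week time point, out of 30 mice in the whole series, which also held a soybean oil diet (SO) and a 12-week time point. All animals were C57BL/6 males that received normolipidic diets after weaning, so the groups shared the amount of fat and differed in its source. Linseed oil is rich in ω-3 polyunsaturated fatty acids and lard in saturated ones. No genotype or drug was varied. Each library came from the VP of a separate mouse, as far as the labels say. The p-values weighed differences against the spread between mice of a diet. In the main fit that spread was estimated with the SO mice of 32 weeks included.

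The VP is a gland whose luminal cells make large amounts of secreted protein under androgen control. Secreted proteins enter the endoplasmic reticulum (ER) as they are made, lose their signal peptide, are folded by chaperones and disulphide enzymes, receive sugar chains and leave in vesicles for the Golgi. When the folding load grows, the sensors IRE1, PERK and ATF6 raise the expression of folding and degradation genes, a programme known as the unfolded protein response. Basal cells lie beneath the luminal layer on the basement membrane, and smooth muscle surrounds the gland. The question addressed here was which genes of these compartments differed between the saturated and the ω-3-rich diet.

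The tissue label could be checked against markers. The 19 VP secretory genes that were measured, such as spermine-binding protein (Sbp), summed to between 137920 and 226150 CPM (counts scaled to the size of each library) in the LO mice and between 152340 and 334310 CPM in the PF mice. In contrast, 3 markers of seminal vesicle and coagulating gland summed to between 54.3 and 342 CPM in all 10 mice. The total count on genes lay between 27590631 and 35539928 in LO and between 27836359 and 41301707 in PF mice. The 10 genes with the most counts took 20.7% of the counts in PF mouse 2 and 28.6% to 33.9% in the other PF mice, against 19.6% to 27.2% in LO. PF mouse 1 had the lowest share of read pairs outside annotated genes, at 6.67%, where the other LO and PF mice had 9.05% to 11.8%. CPM values were scaled by the trimmed mean of M-values (TMM), which sets the bulk of genes equal between libraries. Without that scaling the median log2 difference over all 16218 genes tested moved from 0.01 to -0.16, so every difference below is relative to the bulk of genes.

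The main test was edgeR's quasi-likelihood test with Benjamini-Hochberg adjustment, and it left no gene under an adjusted p of 0.05 (0% of 16218 genes), the lowest being 0.141. Before adjustment, p under 0.05 was reached by 726 genes that were higher in PF (4.48%) and 668 that were lower (4.12%). The DESeq2 Wald test, which the study used, called 85 genes, of which 41 were higher in PF (0.282% of 14539 genes) and 44 were lower in PF (0.303%). The direct count of separate groups gave 89 genes with all 5 PF mice above all 5 LO mice (0.549%) and 107 with all 5 PF mice below them (0.66%). That split depended on the scaling, since unscaled CPM gave 10 genes above and 346 below. Of the 85 DESeq2 calls, 53 had groups that did not overlap. When each mouse was left out in turn, DESeq2 called between 22 genes (without LO mouse 3) and 300 genes (without PF mouse 2), and 18 genes were called in all 10 of these fits. Of these 18 genes, 11 were higher in PF (Agr2, Dnajc3, Derl1, Sbpl, Mcfd2, Ssr3, Bet1, Adk, Spcs3, Ero1lb and Scgb2b17) and 7 were lower (Scnn1g, Tns4, Aldh3a1, Hoxd11, Zfp629, Pla2g4f and Cyp2f2). Leaving out LO mouse 4 gave 231 calls. All 85 genes kept their direction in every one of these fits. They had been picked from the same mice, so that outcome gives no separate support.

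Several of the genes higher in PF with the smallest p-values act in or near the ER. Ero1lb, the oxidase Ero1b that supplies disulphide bonds to folding enzymes, had 64.1, 58.6, 56.3, 69.7 and 64.4 CPM in the LO mice and 78.7, 85.4, 90.4, 102 and 78.9 CPM in the PF mice. All PF mice were above all LO mice. The log2 difference was 0.48 ± 0.08 (SE, n = 5 per diet), or 1.39-fold, with an adjusted p-value of 0.000134 in DESeq2 and 0.2 in edgeR. Bet1, a SNARE protein of vesicles between ER and Golgi, had 31.2, 31.1, 29.5, 33.9 and 36.2 CPM in the LO mice and 45.1, 40.02, 46.7, 40.8 and 42.5 CPM in the PF mice. The groups were again apart, with a log2 difference of 0.41 ± 0.07 and an adjusted p-value of 8.18e-05 in DESeq2 and 0.2 in edgeR. The SO mice were near the LO mice for Bet1, at 33.9 ± 2 CPM (SD, n = 5), and between the other diets for Ero1lb, at 74.2 ± 3.9 CPM (SD, n = 5). Bet1 was also past the threshold when all 6 groups of the series entered one edgeR fit (adjusted p = 0.0183) and in limma voom with sample weights (adjusted p = 0.0448).

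Mcfd2, a partner of the cargo receptor that carries glycoproteins out of the ER, had 129.7, 132, 127, 139 and 137 CPM in the LO mice and 168, 148, 171, 166 and 167 CPM in the PF mice. Its log2 difference was small and even, 0.30 ± 0.05, with an adjusted p-value of 1.5e-05 in DESeq2 and 0.2 in edgeR. Agr2, a disulphide isomerase of secretory epithelia, had 414, 421, 432, 497 and 460.5 CPM in the LO mice and 644, 535, 585, 553 and 604 CPM in the PF mice. No LO mouse reached the lowest PF mouse, and the log2 difference was 0.39 ± 0.07, with an adjusted p-value of 0.000377 in DESeq2. Spcs3, a subunit of the signal peptidase, had 200.3, 220.3, 200.4, 235 and 227 CPM in the LO mice and 267, 266, 288, 265 and 255 CPM in the PF mice, a log2 difference of 0.31 ± 0.06 with an adjusted p-value of 0.000605 in DESeq2. Ssr3, a subunit of the translocon-associated complex of the ER, had 326, 373, 333, 375 and 366 CPM in the LO mice and 426, 432, 461, 420.3 and 436 CPM in the PF mice. Here too the groups were apart, by 0.30 ± 0.06 on the log2 scale with an adjusted p-value of 0.00271 in DESeq2.

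Dnajc3, a co-chaperone of the ER lumen, had 523, 561, 512, 594 and 588 CPM in the LO mice and 667, 700.3, 698, 695 and 624 CPM in the PF mice. Its log2 difference was 0.29 ± 0.06 with an adjusted p-value of 0.00249 in DESeq2. Derl1, which helps to move misfolded proteins back to the cytosol for degradation, had 131, 126, 129, 135 and 133 CPM in the LO mice and 161, 146, 149.7, 150.1 and 153 CPM in the PF mice. The difference of 0.22 ± 0.05 was the smallest of all DESeq2 calls, with an adjusted p-value of 1.5e-05, and the mice of each diet lay close together. Ero1lb, Bet1, Mcfd2, Agr2, Spcs3, Ssr3, Dnajc3 and Derl1 were called by DESeq2 in all 10 fits that left out a mouse.

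**Figure D1:**
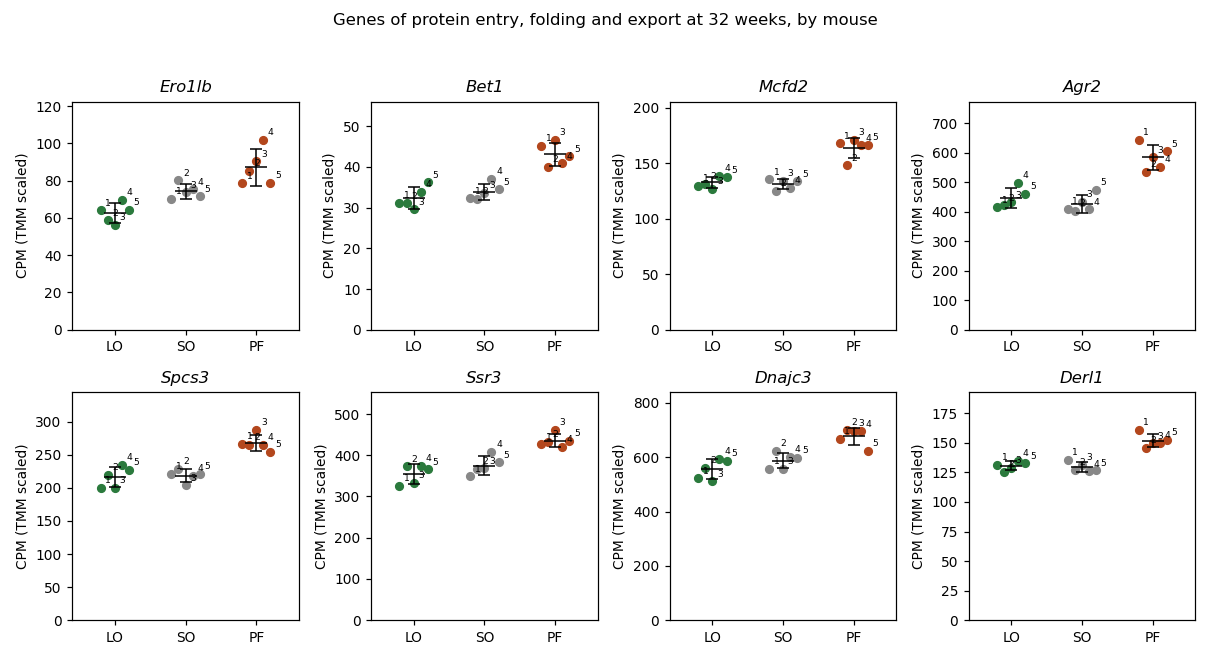
TMM-scaled CPM (vertical axes, from 0) of 8 genes of protein folding, ER entry, degradation and vesicle transport in each LO, SO and PF mouse at 32 weeks, with mouse numbers beside the points and bars for the mean ± SD (n = 5). In each panel the 5 PF mice sit above the 5 LO mice, and the 5 SO mice sit below the lowest PF mouse as well except for Ero1lb.

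Further ER genes were called by DESeq2 but in fewer of the fits that left out a mouse. Slc33a1, the acetyl-CoA transporter of the ER membrane, had a log2 difference of 0.31 ± 0.06 and was called in 9 of 10 fits, and its DESeq2 adjusted p-value was 0.0524 without LO mouse 3. Selenok, a selenoprotein that binds Derl1, had 0.38 ± 0.08 and was called in 7 fits, all but those without LO mouse 1, 2 or 3. Ufm1, a ubiquitin-like modifier attached to proteins at the ER, had 0.31 ± 0.07 and was called in 5 fits. Serp1, which stabilizes proteins at the translocon, had 0.31 ± 0.08 and 4 fits, and Derl2 had 0.26 ± 0.06 and 3 fits. Hspa5, the main ER chaperone BiP, had 1395, 1282, 1230, 1540 and 1431 CPM in the LO mice and 2247, 1857, 1912, 1592 and 1441 CPM in the PF mice. PF mouse 1 was the highest and PF mouse 5 lay within the LO range. Its log2 difference was 0.40 ± 0.11 with an adjusted p-value of 0.0437 in DESeq2, and the call held in 3 of 10 fits, reaching an adjusted p-value of 0.268 at most. The calls of Ufm1, Serp1, Derl2 and Hspa5 were each lost without LO mouse 1, 2 or 3.

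The upstream bases of 3 of these genes are shown because they hold the ER stress element, the sequence through which the unfolded protein response is known to act on folding genes. The element is CCAAT and CCACG with 9 bases of any kind between them, and it was searched on both strands in the 250 bases before the start of each gene in RefSeq promoters of GRCm38.p6. Capitals mark the element, and each sequence ends at the base before the start, on the plus strand. Hspa5 is shown at chr2:34771840-34772089, Dnajc3 at chr14:118937682-118937931 and Ero1lb, listed in RefSeq as Ero1b, at chr13:12565633-12565882.
Hspa5: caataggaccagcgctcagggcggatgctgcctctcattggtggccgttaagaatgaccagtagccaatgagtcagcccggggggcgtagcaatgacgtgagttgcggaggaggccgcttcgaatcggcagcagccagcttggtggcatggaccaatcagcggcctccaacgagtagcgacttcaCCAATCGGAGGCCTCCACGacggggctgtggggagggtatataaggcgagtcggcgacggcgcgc
Dnajc3: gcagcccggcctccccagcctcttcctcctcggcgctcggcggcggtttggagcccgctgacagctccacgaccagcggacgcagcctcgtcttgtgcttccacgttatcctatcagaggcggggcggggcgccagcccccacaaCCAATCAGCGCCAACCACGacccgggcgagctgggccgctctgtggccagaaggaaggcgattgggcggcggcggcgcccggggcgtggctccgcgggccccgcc
Ero1lb: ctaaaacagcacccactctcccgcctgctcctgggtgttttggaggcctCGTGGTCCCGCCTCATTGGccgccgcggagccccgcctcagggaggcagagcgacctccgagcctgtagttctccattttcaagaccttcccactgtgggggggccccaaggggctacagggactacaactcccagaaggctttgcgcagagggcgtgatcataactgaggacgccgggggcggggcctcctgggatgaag
The element lay 65 to 47 bases before the start in Hspa5 and 105 to 87 bases before it in Dnajc3. In Ero1lb it was read on the other strand, 201 to 183 bases before the start. Of 29 genes for ER chaperones and folding enzymes, 25 had a promoter in the table, and 8 of these held the element (32%), against 35 of all 27025 genes with a promoter (0.13%). Among the DESeq2 calls with a promoter it was found in 3 of 35 that were higher in PF and in 0 of 27 that were lower, but only 27 of the 44 lower calls had a promoter, too few to read that second share. The final part CCACG alone was in 21 of the 25 chaperone promoters (84%) and in 31% of all promoters. It was common in other lists too, in 23 of 36 ER-Golgi promoters (63.9%), 15 of 26 PERK-ATF4 promoters (57.7%) and 11 of 26 N-glycan promoters (42.3%). A second form of the element, ATTGG and CCACG with 1 base between them, was in 0 of the 25 chaperone promoters. The ATF4 composite site, TGATG and AA with 1 base between them, was in 8 of 26 promoters of the PERK-ATF4 list (30.8%) and in 3.91% of all promoters. It was in 0 of the 35 promoters of calls higher in PF. These matches describe the letters of the windows and no binding was measured.

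As groups, the ER lists leaned to PF. Of 29 ER chaperones and folding enzymes, 28 were higher in PF, with a median log2 difference of 0.23, where the median over all genes tested was 0.01 and 8307 of 16218 genes were higher. In that list 14 genes had an unadjusted p-value under 0.05 in edgeR, all higher in PF, and 3 were DESeq2 calls. Of 28 genes of the IRE1-XBP1 branch and of ER-associated degradation, 26 were higher (median 0.16), 6 had all PF mice above all LO mice and 4 were DESeq2 calls. Of 24 genes of ER translocation and signal peptide removal, 23 were higher (median 0.19) and 2 were called. ER-Golgi transport had 35 of 41 genes higher (median 0.13) and 1 call, and N-glycan synthesis had 28 of 32 higher (median 0.11) and no call. The PERK-ATF4 list had 17 of 28 genes higher (median 0.10) and no call. Over these 6 lists, 16 of 182 genes had the PF mice above the LO mice and 0 had them below, and 10 were DESeq2 calls, all higher in PF. Over all genes, 0.549% had the PF mice above and 0.66% had them below. DESeq2 called 0.282% of all genes as higher in PF, and 4.48% were higher at an unadjusted edgeR p-value under 0.05. Without scaling the direction flipped for most members of some lists, since 9 of 28 IRE1-XBP1 genes, 6 of 32 N-glycan genes and 10 of 41 ER-Golgi genes were then higher, against 21 of 29 chaperones and 14 of 24 translocation genes. Even so, 25, 26, 32, 28 and 22 of these genes, in that order, were above the unscaled median of all genes.

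Of the regulators of the response, Xbp1 and Atf4 had small differences. Xbp1, the transcription factor spliced by IRE1, had 371, 372, 376, 381 and 425 CPM in the LO mice and 382, 386, 431, 444 and 433 CPM in the PF mice, a log2 difference of 0.11 ± 0.06 with an edgeR adjusted p-value of 0.652. Atf4, the factor downstream of PERK, had 0.12 ± 0.08 with an edgeR adjusted p-value of 0.709, and without scaling both estimates turned negative, -0.07 for Xbp1 and -0.06 for Atf4, above the -0.16 of all genes. Eif2ak3, which encodes PERK, had 0.25 ± 0.09, and Asns, an ATF4 target that makes asparagine, had 0.19 ± 0.08. Nupr1, a stress-induced cofactor, had 409.7, 349, 239.5, 492 and 451 CPM in the LO mice and 1292, 437, 495, 800.5 and 646 CPM in the PF mice, with PF mouse 1 far above the rest. The log2 difference of Nupr1 was larger, at 0.92 ± 0.28, with a DESeq2 adjusted p-value of 0.0857, and its groups overlapped. Of the folding enzymes, Manf, a secreted ER stress protein, had 0.38 ± 0.10 with a DESeq2 adjusted p-value of 0.0743, and its groups overlapped.

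A mean level over each list showed which mice carried the difference. For ER chaperones, the mean of log2(CPM + 1) relative to the LO mean lay between -0.06 and 0.06 in the LO mice and between 0.09 and 0.46 in the PF mice, with PF mouse 1 highest. For the IRE1-XBP1 list it lay between -0.04 and 0.05 in LO and between 0.09 and 0.24 in PF, with PF mouse 4 highest. Both were therefore separate between the diets. Without PF mouse 1 the edgeR medians were 0.15 for chaperones, 0.18 for the IRE1-XBP1 list and 0.19 for translocation. The PERK-ATF4 median went from 0.10 to -0.02 without that mouse.

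PF mouse 1 also decided the values of lists outside the ER. Cytosolic ribosomal proteins were higher in PF for 79 of 81 genes (median 0.13), and nuclear genes of oxidative phosphorylation for 75 of 83 (median 0.19). The mean level of the ribosomal list was 0.67 in PF mouse 1 and between -0.09 and -0.02 in the other PF mice, within the LO range of -0.16 to 0.16. For oxidative phosphorylation it was 0.70 in PF mouse 1 and between -0.06 and 0.06 in the others. LO mouse 1 was likewise the highest of the LO mice for these lists, at 0.16 and 0.19. SO mouse 1 was the highest of the SO mice, at 0.06 and 0.08. Without PF mouse 1, 30 of the ribosomal genes were higher (median -0.04) and 43 of the oxidative phosphorylation genes (median 0.01). Genes of NRF2 and antioxidant defence went from 23 to 15 of 30 higher (median 0.12 to -0.00025). The low share of read pairs outside genes in PF mouse 1 moved with these values. LO mouse 1 (9.81%) and SO mouse 1 (9.79%) also had the lowest such share of their diets. The part of that share in the values was not tested.

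**Figure D2:**
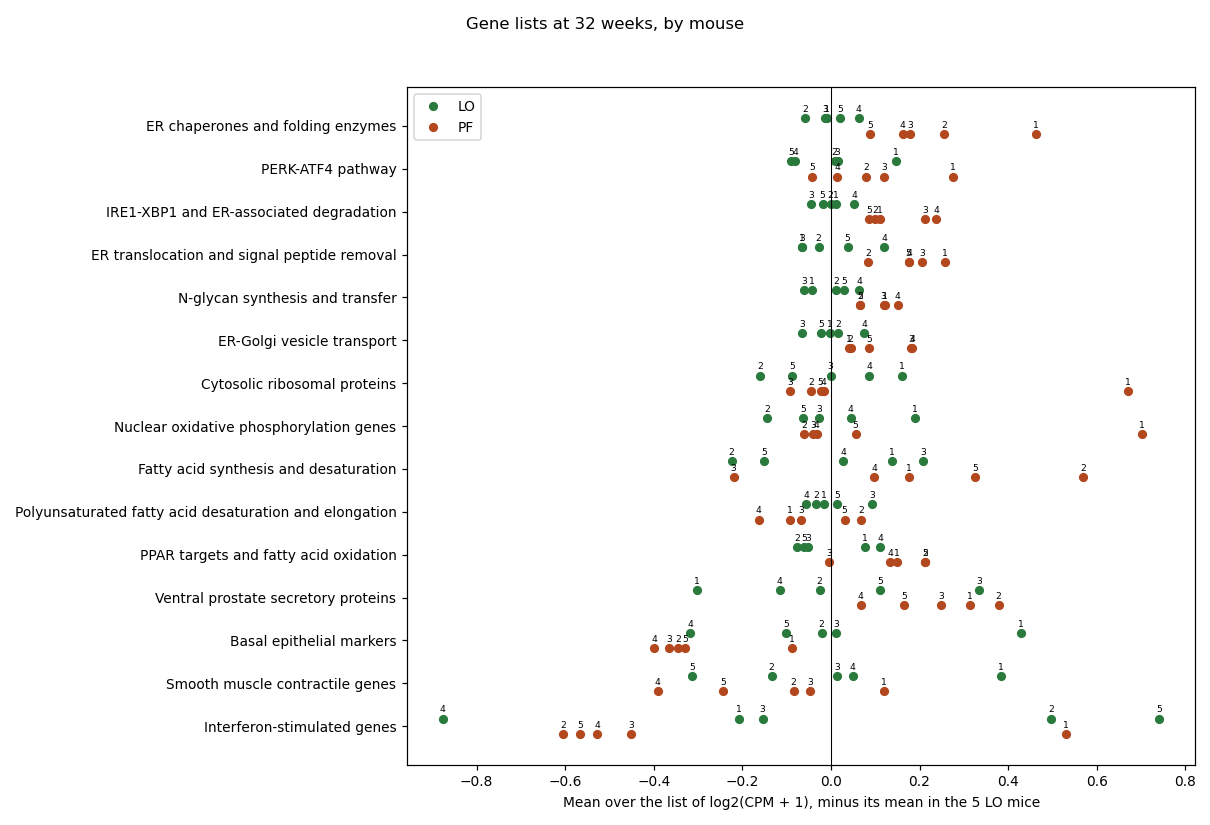
Mean level of 15 gene lists in each LO and PF mouse at 32 weeks, as the mean over the genes of log2(CPM + 1) minus the mean of the 5 LO mice (horizontal axis), with mouse numbers above the points. The PF mice sit apart from the LO mice for ER chaperones (0.09 to 0.46) and the IRE1-XBP1 list (0.09 to 0.24), and PF mouse 1 stands alone for ribosomal proteins (0.67) and oxidative phosphorylation (0.70).

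Of 19 VP secretory proteins, 14 were higher in PF (median 0.11, and 0.30 without LO mouse 3), 5 of them and 1 lower gene at an unadjusted edgeR p under 0.05, and 2 were DESeq2 calls. Over all genes, 4.48% were higher and 4.12% lower at that unadjusted p, and 0.282% were DESeq2 calls higher in PF. After TMM scaling, the most abundant VP product was higher in 4 of the 5 PF mice than in any LO mouse. Sbp took between 9.09% and 15.04% of all counts in the LO mice, whereas in the PF mice it took 14.6%, 9.50%, 19.6%, 21.2% and 21.4%. PF mouse 2 was within the LO range, and in these unscaled shares so was PF mouse 1. The log2 difference of Sbp was 0.72 ± 0.25 with an adjusted p-value of 0.447 in edgeR and 0.117 in DESeq2. Spink1, a trypsin inhibitor of the secretion, had 28652, 31288, 22186, 48256 and 38514 CPM in the LO mice and 80163, 35115, 49620, 65803 and 63308 CPM in the PF mice, a log2 difference of 0.80 ± 0.24 with a DESeq2 adjusted p-value of 0.0676. Sbpl, a gene similar to Sbp, had 80.7, 112, 64.2, 83.4 and 115 CPM in the LO mice and 134, 208, 308, 319 and 311 CPM in the PF mice. Its groups did not overlap, PF mouse 2 included, and its log2 difference of 1.49 ± 0.31 (2.81-fold) had a DESeq2 adjusted p-value of 0.00125 and was called in all 10 fits that left out a mouse. Probasin (Pbsn), an androgen-driven product, had 1969, 3216, 7896, 3349 and 4555 CPM in the LO mice and 5469, 5877, 5999, 3291 and 4967 CPM in the PF mice, and its difference of 0.29 ± 0.35 was within its error. Spink5, a serine protease inhibitor, was lower in PF by estimate, with 4853, 9076, 6861, 7325 and 7467 CPM in the LO mice and 3340, 3437, 5942, 3652 and 6107 CPM in the PF mice and a log2 difference of -0.66 ± 0.21 (DESeq2 adjusted p = 0.117). Since reads were counted per tissue sample, more secretory cells and more messenger per cell cannot be told apart.

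A cluster of secretoglobin genes on chromosome 7 was higher in PF. The Scgb1b and Scgb2b genes encode androgen-binding proteins, and 13 of them between positions 31375592 and 34022881 of GRCm38 passed the filter. All 13 were higher in PF, and 11 had an unadjusted edgeR p-value under 0.05, against 4.48% of all genes. DESeq2 called 5, against 0.282% of all genes, and 1 had PF mice apart from LO mice, against 0.549%. That gene, Scgb2b17, had 3.53, 2, 2.99, 10.4 and 5.55 CPM in the LO mice and 21, 11.5, 16.1, 48.7 and 21.9 CPM in the PF mice, a log2 difference of 2.29 ± 0.48 with a DESeq2 adjusted p-value of 0.000438. It was called in all 10 fits that left out a mouse. The call of Scgb2b24 held in 4 of 10 fits, and those of Scgb2b12, Scgb2b19 and Scgb1b7 in 3. Each of these was lost without PF mouse 4 or 5, and without LO mouse 1, 2, 3 or 5. Scgb2b12 had 4.01, 9.89, 4.69, 9.77 and 9.98 CPM in the LO mice and 21, 4.32, 21.1, 85.3 and 59.1 CPM in the PF mice, with PF mouse 2 in the LO range and PF mice 4 and 5 far above it. Summed over the cluster, the LO mice had between 85.7 and 205 CPM and the PF mice 373, 90.3, 421, 1564 and 904 CPM. In SO, Scgb2b17 was at 15 ± 5.95 CPM and Scgb2b12 at 24 ± 12.7 CPM (SD, n = 5). The SO mice overlapped the LO mice for Scgb2b17, and were all above them for Scgb2b12, from 12.2 to 40.8 CPM. The estimate of LO minus SO was -1.62 for Scgb2b17 and -1.65 for Scgb2b12, and that of PF minus SO was 0.67 for each, and no gene passed edgeR in either comparison. These genes are close copies of each other, so reads could be split among them or set aside, and single values are uncertain. The cluster was described as a group after its values were seen.

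**Figure D3:**
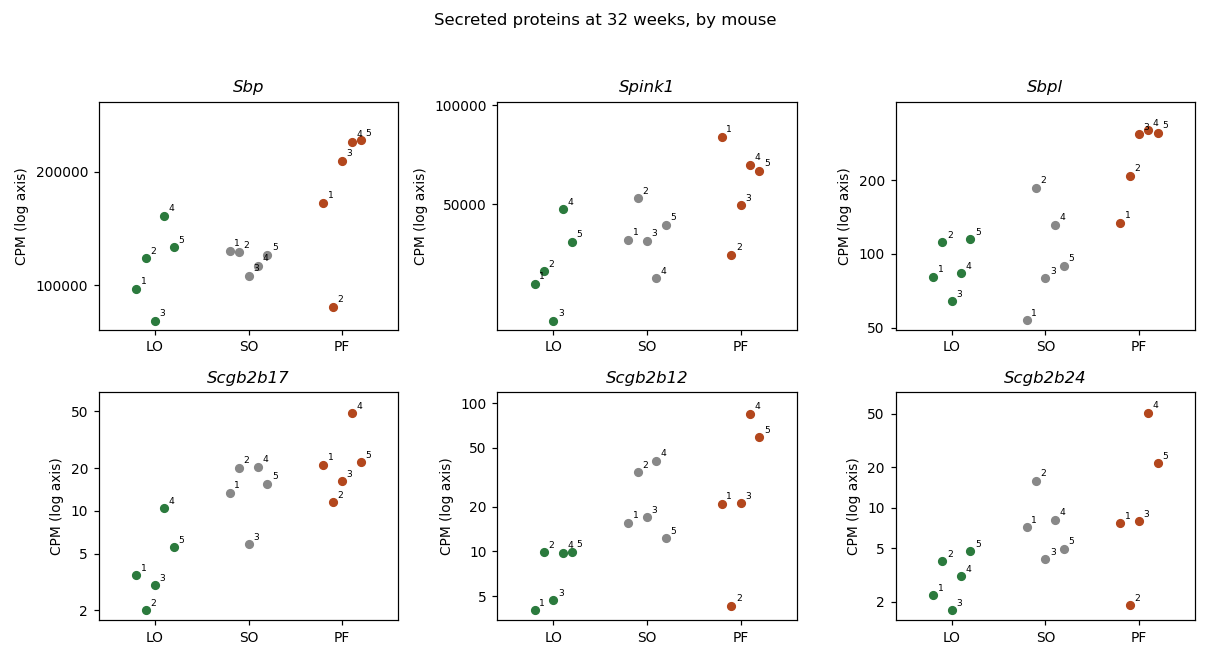
TMM-scaled CPM on log axes of 6 secreted proteins in each LO, SO and PF mouse at 32 weeks, with mouse numbers beside the points. PF mouse 2 lies in the LO range for Sbp, Spink1, Scgb2b12 and Scgb2b24, and all 5 PF mice lie above all LO mice for Sbpl and Scgb2b17.

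Among the genes lower in PF, Cyp2f2 had the smallest p-value of all. This cytochrome P450, which oxidizes aromatic compounds such as naphthalene, had 291, 259, 263, 242 and 239 CPM in the LO mice and 132, 172, 171, 127 and 177 CPM in the PF mice. The highest PF mouse was well below the lowest LO mouse. Its log2 difference of -0.73 ± 0.11 (0.602-fold) had an adjusted p-value of 1.5e-05 in DESeq2 and 0.141 in edgeR, and the SO mice were in between at 209 ± 25.2 CPM (SD, n = 5). Aldh3a1, an aldehyde dehydrogenase, had 6.67, 6.18, 7.48, 6.28 and 6.56 CPM in the LO mice and 3.89, 4.51, 4.42, 4 and 4.79 CPM in the PF mice and a log2 difference of -0.62 ± 0.12. Pla2g4f, a phospholipase A2 that frees fatty acids from membrane lipids, had 10.1, 13.4, 12.6, 11 and 8.79 CPM in the LO mice and 7.46, 7.29, 6.42, 6.56 and 7.71 CPM in the PF mice and a difference of -0.66 ± 0.13. Both had a DESeq2 adjusted p-value of 0.0013, and their groups did not overlap.

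Other DESeq2 calls lower in PF had varied roles. Scnn1g, a subunit of the epithelial sodium channel, had 4.23, 3.97, 3.95, 3.71 and 3.28 CPM in the LO mice and 1.89, 2.35, 2.9, 1.94 and 2.76 CPM in the PF mice and a log2 difference of -0.69 ± 0.14 (DESeq2 adjusted p = 0.00149). The SO mice, at 2.53 ± 0.178 CPM (SD, n = 5), were at the level of the PF mice. Slco4a1, an organic anion transporter, had -0.72 ± 0.16 and was a DESeq2 call in 7 of 10 fits that left out a mouse, all but those without PF mouse 4 and LO mice 1 and 3. Lrat, which stores retinol as esters, had 1.49, 1.17, 1.28, 0.603 and 1.36 CPM in the LO mice and 0.274, 0.492, 0.352, 0.149 and 0.246 CPM in the PF mice, a difference of -1.95 ± 0.46 at low counts, and was called in 4 of 10 such fits. Apobec3, a cytidine deaminase that restricts retroviruses, had 117, 137, 123, 113 and 122 CPM in the LO mice and 85.9, 108, 65.9, 63.7 and 82.2 CPM in the PF mice, a difference of -0.59 ± 0.13 called in 7 of 10 fits and lost without PF mouse 4, LO mouse 2 or LO mouse 3. Hoxd11, a homeobox gene of the posterior body, had 8.55, 7.6, 7.19, 7.29 and 6.77 CPM in the LO mice and 4.22, 5.68, 5.52, 4.59 and 4.21 CPM in the PF mice, a difference of -0.63 ± 0.12 with a DESeq2 adjusted p-value of 0.000377. The zinc finger gene Zfp629 had 34.1, 32.8, 34.3, 31.3 and 32.9 CPM in the LO mice and 27.1, 28, 29, 25.2 and 26 CPM in the PF mice and a difference of -0.29 ± 0.06, with a DESeq2 adjusted p-value of 0.000511.

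Basal cell markers were mostly lower in PF. Of 15 basal epithelial markers, 4 were higher in PF and 11 were lower (median -0.37), 6 of the lower genes had an unadjusted edgeR p-value under 0.05, and 3 were DESeq2 calls. These were Krt15, Cdh3 and Col17a1. Over all genes, 4.12% were lower in PF at that unadjusted p-value in edgeR, and 0.303% were DESeq2 calls lower in PF. Krt15, a keratin of basal cells, had 111, 85.1, 97.2, 66.2 and 95 CPM in the LO mice and 71.9, 60.6, 55.2, 46 and 62.5 CPM in the PF mice, a log2 difference of -0.62 ± 0.15 with a DESeq2 adjusted p-value of 0.0321. Cdh3, P-cadherin, had 13.4, 11.1, 11.8, 7.87 and 8.93 CPM in the LO mice and 6.72, 7.29, 7.36, 7.01 and 7.43 CPM in the PF mice, with groups apart and a difference of -0.57 ± 0.14 (DESeq2 adjusted p = 0.0361). Col17a1, a collagen of the hemidesmosome, had -0.79 ± 0.21 (DESeq2 adjusted p = 0.0388), with a wide spread in LO, from 6.69 to 19.2 CPM, against 6.23 to 8.06 CPM in PF. Each of these 3 calls was kept in 3 of 10 fits that left out a mouse, and lost without LO mouse 1, 2 or 3. The defining markers Krt5 and Trp63 were lower by estimate, at -0.59 ± 0.21 and -0.40 ± 0.13 (log2), and their adjusted p in edgeR was 0.451 and 0.392. Summed over the list, the LO mice had between 678 and 929 CPM and the PF mice between 616 and 670 CPM. The mean log2 level of the list overlapped, however, from -0.32 to 0.43 in LO and from -0.40 to -0.09 in PF, and the median of the log2 differences was -0.23 without LO mouse 1.

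Some lower calls outside that list are given next. Tns4, a tensin of focal adhesions, had 13.3, 10.8, 14.3, 8.34 and 11.3 CPM in the LO mice and 5.18, 7.98, 7.01, 6.02 and 7.34 CPM in the PF mice, a difference of -0.79 ± 0.15 with a DESeq2 adjusted p-value of 0.000605, and it was past the threshold in edgeR when all 6 groups entered one fit (adjusted p = 0.0382). Pkp1, a desmosome protein, had 12, 11, 15.8, 10.2 and 10.8 CPM in the LO mice and 6.08, 8.99, 7.48, 5.85 and 8.29 CPM in the PF mice and -0.71 ± 0.15, and was a DESeq2 call in 8 of 10 fits, lost without PF mouse 4 or LO mouse 3. Lama3, a laminin chain of the basement membrane, had -0.67 ± 0.16, Fat2, an atypical cadherin, -0.80 ± 0.21, and Trim29 -0.82 ± 0.21. Lama3, Fat2 and Trim29 were chosen after their values were seen, and DESeq2 called them in 5, 4 and 3 of 10 fits. Ccnd1, the cyclin D1 of the G1 phase, had 84.3, 70.3, 82.7, 56.7 and 76.2 CPM in the LO mice and 47.9, 56.2, 57.7, 39.8 and 56.2 CPM in the PF mice and a difference of -0.52 ± 0.12, called in 4 of 10 fits. Leaving out LO mouse 1, 2 or 3 ended the calls of Lama3, Fat2, Trim29 and Ccnd1, and also that of Lrat. Of 38 genes of cell division and DNA replication, 16 were higher in PF (median -0.05, and 0.18 without LO mouse 5) and Ccnd1 was the single DESeq2 call.

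**Figure D4:**
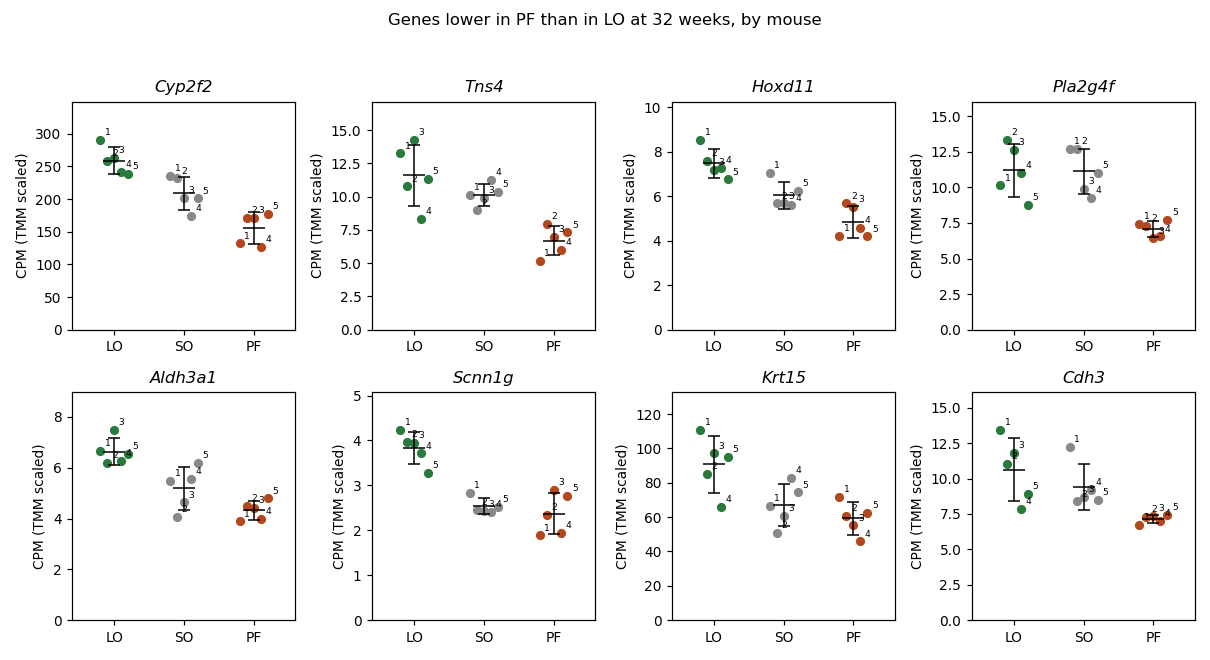
TMM-scaled CPM (vertical axes, from 0) of 8 genes lower in PF in each LO, SO and PF mouse at 32 weeks, with mouse numbers beside the points and bars for the mean ± SD (n = 5). All 5 PF mice lie below all 5 LO mice in each panel except Krt15, where the ranges meet (46.0 to 71.9 CPM in PF, 66.2 to 110.7 in LO).

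Lipid genes showed large but uneven differences. Scd1, the desaturase that makes monounsaturated from saturated fatty acids, had 672, 643, 1113, 766 and 612 CPM in the LO mice and 1116, 2727, 704, 1161 and 2326 CPM in the PF mice. Its log2 difference of 1.08 ± 0.32 (2.11-fold) had an unadjusted edgeR p-value of 0.0044 and a DESeq2 adjusted p-value of 0.0738. PF mice 2 and 5 were highest and PF mouse 3 was in the LO range. Markers of fat cells followed the same mice. Fabp4, a fatty acid carrier of adipocytes, had 54.5, 33.4, 104, 192 and 56.5 CPM in the LO mice and 205, 350.0, 40.6, 117 and 408 CPM in the PF mice. Of 16 adipocyte markers, 15 were higher in PF (median 0.93), and their sum ranged from 247 to 921 CPM in LO and from 241 to 1952 CPM in PF, with PF mice 2 and 5 highest and PF mouse 3 lowest. The part of fat cells in the Scd1 difference was not tested. Of 27 genes of fatty acid synthesis and desaturation, 21 were higher (median 0.18, and 0.05 without PF mouse 2), and 0 were DESeq2 calls.

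The desaturases of polyunsaturated fatty acids were lower in PF by estimate. Fads1, the delta-5 desaturase, had 29.1, 26.8, 36.2, 25.7 and 31 CPM in the LO mice and 17.9, 26.6, 23.4, 17.2 and 24.1 CPM in the PF mice, and Fads2, the delta-6 desaturase, had 18.3, 11.7, 15.3, 9.71 and 10.01 CPM in the LO mice and 7.46, 10.3, 9.79, 8.26 and 8.78 CPM in the PF mice. The log2 differences were -0.45 ± 0.13 and -0.54 ± 0.17, and edgeR's adjusted p was 0.354 and 0.397. Acsl6, an acyl-CoA synthetase with a preference for long polyunsaturated chains, had -0.54 ± 0.21. Over the 15 genes of that list 8 were higher in PF (median 0.06, and -0.02 without LO mouse 2) and 0 were DESeq2 calls. Angptl4, a PPAR target that inhibits lipoprotein lipase, had 5.47, 6.02, 4.88, 6.34 and 6.17 CPM in the LO mice and 12, 19.3, 6.11, 12.1 and 19.3 CPM in the PF mice, with 1.25 ± 0.36 on the log2 scale and a DESeq2 adjusted p-value of 0.0555. As for the adipocyte markers, PF mice 2 and 5 were highest and PF mouse 3 lowest, and the part of fat cells was not tested. Of 38 PPAR targets and genes of fatty acid oxidation, 31 were higher in PF (median 0.12) and 0 were called. Cholesterol synthesis had 11 of 26 genes higher (median -0.03, and 0.06 without PF mouse 2) and no call.

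Adk, adenosine kinase, had 97.2, 108, 85.9, 109 and 101 CPM in the LO mice and 145, 117, 130.1, 140.2 and 123 CPM in the PF mice, groups that did not overlap and a difference of 0.39 ± 0.08 with a DESeq2 adjusted p-value of 0.0013, called in all 10 fits that left out a mouse. Of 20 genes of polyamine metabolism, whose products the prostate secretes in large amounts, 16 were higher in PF (median 0.15, and 0.055 with 14 higher without PF mouse 1) and 0 were called. Mat2a, which makes S-adenosylmethionine, had 0.51 ± 0.17, Odc1, ornithine decarboxylase, 0.32 ± 0.14, and Arg2, an arginase, 0.22 ± 0.09, and edgeR's adjusted p was 0.432, 0.543 and 0.51.

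The lists of immune and stromal genes held no DESeq2 call at 32 weeks. Of 31 interferon-stimulated genes, 2 were higher in PF (median -0.32), and their mean level lay between -0.88 and 0.74 in LO and between -0.60 and 0.53 in PF. Oas2, a sensor enzyme for viral RNA, had 13.1, 45.7, 33.3, 5.2 and 47.7 CPM in the LO mice and 12.6, 10.2, 6.34, 4.44 and 9.82 CPM in the PF mice, so the LO mice alone spanned a wide range. PF mouse 1 was apart from the other PF mice for this list too. The median was -0.64 without that mouse, with 0 of 31 genes higher, and -0.095 without LO mouse 5. Complement components had 7 of 29 genes higher (median -0.31, and -0.16 without LO mouse 3). Macrophage and dendritic cell genes had 5 of 29 higher (median -0.24, and -0.09 without PF mouse 3). Cytokines, Toll-like receptors and inflammasome genes had 7 of 34 higher (median -0.17, and -0.43 without PF mouse 2). MHC class I genes had 3 of 21 higher (median -0.13, and -0.38 without PF mouse 1). T cell and NK cell genes had 18 of 27 higher (median 0.21, and 0.03 without PF mouse 2). MHC class II genes had 6 of 13 higher (median -0.01, from -0.14 without LO mouse 4 to 0.11 without LO mouse 3). The smooth muscle and fibroblast lists turned on LO mouse 1. Smooth muscle genes had 1 of 20 higher (median -0.15, and -0.04 without that mouse), and fibroblast and collagen genes had 8 of 28 higher (median -0.15, turning to 0.07 without it). Among the 44 DESeq2 calls lower in PF, 5 were immunoglobulin segments, whose summed level ranged from 1239 to 15737 CPM in LO and from 3178 to 9777 CPM in PF. Red blood cell genes were higher for 8 of 8 members (median 1.15, and 0.66 without PF mouse 4), with sums from 75.8 to 180 CPM in LO and from 72.7 to 563 CPM in PF.

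The 12-week mice, which were other animals, gave the same contrast without shared samples. The difference between the time points was tested as an interaction over 16605 genes. No gene passed in edgeR (smallest adjusted p = 0.343, 1294 genes at an unadjusted p-value under 0.05), while DESeq2 called 12. These 12 were Serpina3f, Bet1, Dnajb9, Hspa13, Bag4, Pkp1, Slc33a1, Tns4, Cdh3 and 3 immunoglobulin segments. Dnajb9, a co-chaperone of ER degradation, was between 80.7 and 102.9 CPM in LO and between 50.5 and 73.5 CPM in PF at 12 weeks, so the PF mice were below the LO mice. At 32 weeks it had 68.7, 70.8, 50.9, 75.8 and 98 CPM in the LO mice and 86, 87.5, 106, 88.3 and 95.2 CPM in the PF mice, and the change in the difference was 0.87 ± 0.20 on the log2 scale (DESeq2 adjusted p = 0.0308). Hspa13, an ER-associated member of the Hsp70 family, behaved alike, from 58.3 to 69.3 CPM in LO and from 48.9 to 54.2 CPM in PF at 12 weeks, with 50.2, 60.04, 42.6, 53.3 and 62.5 CPM in the LO mice and 55.5, 63.6, 73.4, 68 and 65.5 CPM in the PF mice at 32 weeks. Bet1 lay between 31.5 and 36.8 CPM in LO and between 32.7 and 37.4 CPM in PF at 12 weeks, and its change was 0.39 ± 0.09 (DESeq2 adjusted p = 0.0308).

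At 12 weeks the ER lists had medians of 0.16 for chaperones, 0.06 for PERK-ATF4, -0.05 for the IRE1-XBP1 list and -0.01 for translocation. The medians were -0.02 for ER-Golgi transport and -0.01 for N-glycan synthesis. Ribosomal proteins were higher in PF at 12 weeks for 78 of 80 genes (median 0.12), and oxidative phosphorylation for 74 of 81 (median 0.11). Mitochondrially encoded messages were higher for 11 of 12 (median 0.08). Basal markers were higher by estimate at 12 weeks, in 12 of 14 genes (median 0.27), against 4 of 15 at 32 weeks. For Tns4 the change was -0.84 ± 0.20 and for Cdh3 -0.85 ± 0.20 (DESeq2 adjusted p = 0.0494 for each). Serpina3f, a serine protease inhibitor, had the lowest DESeq2 adjusted p-value of the 12, with a change of -5.45 ± 0.99, and lay between 0.0305 and 0.453 CPM in LO and between 0.250 and 5.50 CPM in PF at 12 weeks, against 3.34, 3.09, 3.15, 0.412 and 11.1 CPM in the LO mice and 0.548, 1.42, 0.783, 0.537 and 1.04 CPM in the PF mice at 32 weeks. Its levels were low throughout and 1 LO mouse was far above the rest.

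**Figure D5:**
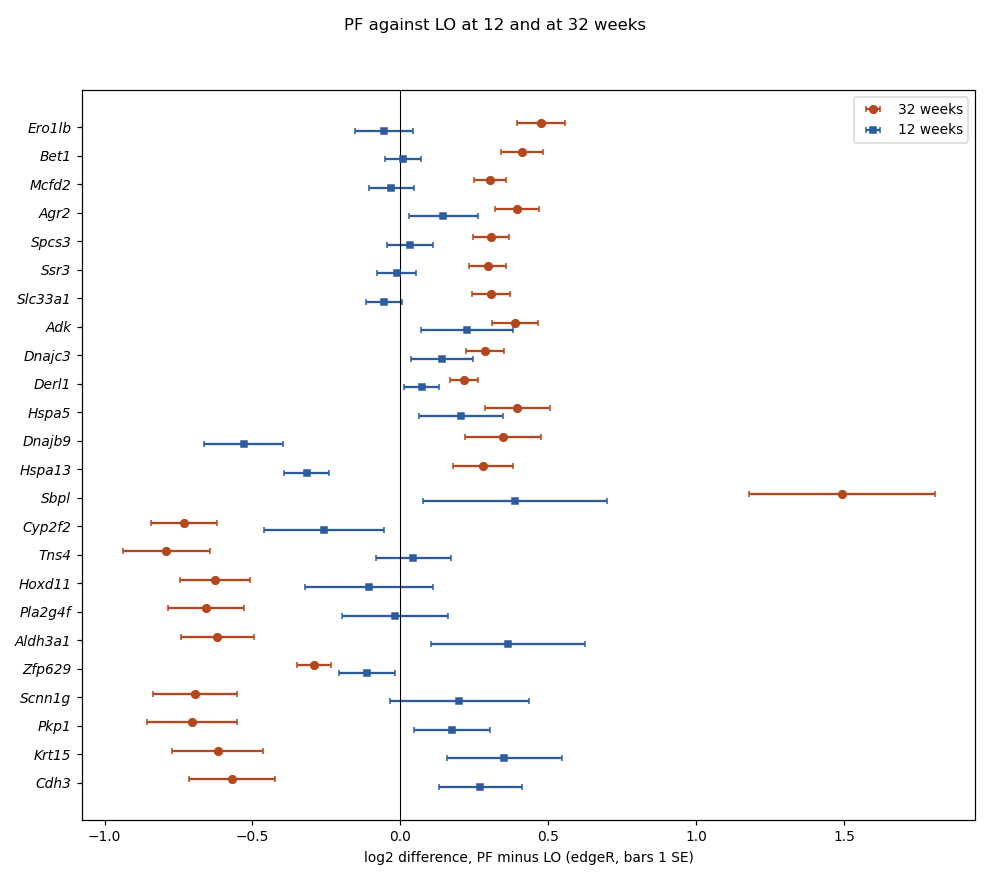
log2 difference PF minus LO (horizontal axis, edgeR, bars 1 SE, 5 mice per diet) at 32 weeks (circles) and in other mice at 12 weeks (squares) for 24 genes. Ero1lb, Bet1 and Mcfd2 sit at 0.30 to 0.48 at 32 weeks and between -0.05 and 0.01 at 12 weeks, and Dnajb9 and Hspa13 lie on opposite sides of 0. Ero1lb, Bet1 and Mcfd2 were picked for small p-values at 32 weeks, which favours a larger difference there. Among them DESeq2 called a change with time for Bet1 only. Dnajb9 and Hspa13 were picked for small p-values of the interaction with time.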

How the data were processed

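RNA of the VP of 5 mice per diet and time was sequenced from stranded polyA libraries. The deposited values are whole-number counts per gene, which the authors neither normalized nor pooled. The submitters' processing notes name TopHat, TopHat2, HTSeq, DESeq2 and the build GRCm38.p6. Their versions, the annotation release and the strand setting of counting are not given in the sources used here, so overlapping and antisense genes are uncertain. Symbols and positions came from GENCODE M21, and 37693 of 39179 identifiers matched. Rows without a gene were kept out of library sizes.

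The 15 mice of 32 weeks entered one model with diet as the term, in edgeR 4.0.16 (R 4.3.3) with TMM scaling and its expression filter, tested by quasi-likelihood with Benjamini-Hochberg adjustment. DESeq2 1.42.0 (Wald test, the test of the study) and limma 3.58.1 were alternatives. Groups came from the sample labels. The study states no pairing by replicate number, and the main fit used none. The genes named were the 10 with the smallest edgeR p in each direction, up to 3 from each of 42 lists, up to 5 from the interaction with time, and Hspa5, Xbp1, Atf4, Scd1, Fads1, Fads2 and Pbsn. Other DESeq2 calls, Sbp, Spink5, Krt5, Trp63 and the secretoglobins were named outside that rule, after values were seen. Only part of the names the rule allows is printed. The alternatives for single genes did not cover Krt5 and Trp63. Some items that the rule also covered are not reported here. Members and lists were chosen with earlier results of these data known. Alternatives were other tests, scalings, filters, sets of mice and the replicate block, and those of the DESeq2 and separation counts were added after seeing the data. Scripts were tested on simulated counts. Depth was 27590631 to 41301707 counts per mouse. Counts of replicates differed beyond sampling noise in every pair (chi-square per degree of freedom of 22.9 or more). Promoter sequences came from RefSeq.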

Additional observations from a re-analysis of the deposited data

Results flagged for a closer look

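In each of 218 groups of 5 mice (a gene or a list in one diet), the gap of the highest or lowest mouse to the nearest other was compared with Dixon's 95% critical value. A mouse stood apart in 12 of the 218 groups. Chance gives about 1 in 20, so the total was close to the chance share, and single flags may be no more than that.

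PF mouse 1 accounted for 7 of them. It was high in the mean log2 level of ribosomal proteins (0.67), oxidative phosphorylation (0.70), interferon-stimulated genes (0.53) and basal markers (-0.087), and in the CPM of Uqcrfs1 (164), a complex III subunit, and Oas3 (4.25), an antiviral enzyme. It was low in Fat2 (7.10 CPM). The ER chaperone list, where it was also highest, did not meet the criterion.

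Among the other PF mice, PF mouse 2 was low for Mcfd2 at 148 CPM, still above every LO mouse. PF mouse 4 was high for Scgb2b17 at 48.7 CPM, and PF mouse 3 was high for Acsl6 at 1.49 CPM. Of the LO mice, LO mouse 5 was high for Xbp1 (425 CPM) and Serpina3f (11.1 CPM).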

How the results depend on the processing

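The number of calls depended on the test. Against 0 genes in edgeR, DESeq2 called 85 (41 higher and 44 lower in PF), edgeR with all 6 groups in one fit called 2 (Bet1 higher, Tns4 lower; 1 each way), and limma voom with sample quality weights called 4 (3 higher, 1 lower). For the difference between 12 and 32 weeks DESeq2 called 12 genes. With only the PF and LO mice DESeq2 called 28. Leaving out each mouse in turn gave 0 edgeR calls each time and 22 (without LO mouse 3) to 300 (without PF mouse 2) DESeq2 calls, with 231 without LO mouse 4. With the replicate number as a block DESeq2 called 169 genes (85 higher, 84 lower) and edgeR 0. The study states no pairing by number. Correlations of same-numbered PF and LO mice ranged from -0.115 to 0.44, the highest for the mice numbered 1. The mice numbered 1 were also the highest within LO, SO and PF for the ribosomal and oxidative phosphorylation lists. What the numbers stand for was not tested. Genes with all PF mice above or below all LO mice went from 89 and 107 to 163 and 181 without PF mouse 1, 333 and 293 without PF mouse 2, and 10 and 346 without scaling. The DESeq2 and separation settings were chosen after seeing the data. The cause of these differences was not tested. Without scaling the estimates of Xbp1 (-0.07), Atf4 (-0.06) and Fitm2 (-0.01) turned negative, and the other alternatives reversed 0 values of single genes. Counts of 27590631 or more per mouse limit precision only for low genes such as Lrat.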

Other observations

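Further lists of genes held no DESeq2 call except where given, and most of their medians turned on single mice. Immediate early genes, which respond within minutes to stimuli, were higher in PF for 19 of 23 members (median log2 difference 0.15), but for 10 of 23 without PF mouse 2 (median -0.03), and the median was -0.08 in limma voom. Mitochondrially encoded messages were higher for 10 of 12 (median 0.17), with medians from 0.14 to 0.26 over the alternatives run. Cytosolic heat-shock proteins were higher for 12 of 22 (median 0.03, and -0.05 without PF mouse 1). Circadian clock genes were higher for 8 of 21 (median -0.05, and 0.03 without LO mouse 1) and genes of eicosanoid synthesis for 10 of 24 (median -0.07, and -0.18 without PF mouse 2).

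Of the cell type lists, luminal epithelial markers were higher in PF for 9 of 19 (median -0.04, from -0.25 without PF mouse 1 to 0.14 without LO mouse 1). Endothelial markers were higher for 7 of 17 (median -0.11, and 0.12 in limma voom) and nerve and Schwann cell markers for 3 of 14 (median -0.26, and -0.04 without LO mouse 3). Chemokines and their receptors were higher for 15 of 47 (median -0.08, and -0.27 without PF mouse 2). B cell and plasma cell genes were higher for 13 of 26 (median 0.05, and -0.15 without PF mouse 2), and mast cell, eosinophil and neutrophil genes for 9 of 13 (median 0.31, and -0.01 without PF mouse 2). Seminal vesicle and coagulating gland secretions were higher for 2 of 3, with 1 DESeq2 call, urothelial markers for 1 of 4, and skeletal muscle markers for 3 of 14 (median -0.19, from -2.07 without PF mouse 3 to 1.19 without LO mouse 1).

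At 12 weeks, in other mice, macrophage and dendritic cell genes were higher in PF for 25 of 28 members (median 0.56) and fibroblast and collagen genes for 27 of 28 (median 0.32), against 5 of 29 and 8 of 28 at 32 weeks, and no gene passed edgeR in either comparison.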
